A study of Rattus norvegicus with 2 samples.

Results

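To follow the RNA of macrophages and other myeloid cells in urine when a kidney is obstructed, 10 marker genes were read in the urine RNA profiles of WT and UUO rats. The genes are Tyrobp, Fcer1g, Ptprc, Itgam, Cd14, Cd68, Lyz2, Laptm5, Coro1a and Lcp1. They were chosen by symbol, and all 10 were found among the 16484 entries with a number-only rat gene ID (here called annotated genes), within 113011 listed features in all. UUO is unilateral ureteral obstruction, in which the right ureter is tied and the kidney above it becomes inflamed and fibrotic. The rats were Sprague Dawley, labelled post natal day 56 and 8 weeks of age, and the profiles were taken 14 days after surgery. WT rats had the same surgery without the ligation, so these controls are sham-operated animals. Urine was drawn from the ureter by catheter in both groups, and in UUO rats only urine newly made after the stored urine had been drained was kept. By the study's methods it was spun before freezing and again before extraction, so how far whole cells were still in it is not known. The value columns carry short codes, which were read as UUO and WT through the headings of the study's own urine lists. There was 1 library per group, and the number of rats behind a library is not given in the sources used here. No difference below therefore has a replicate check, no test between groups was possible, and each statement describes these 2 libraries.

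Macrophages and neutrophils are myeloid leukocytes that enter the obstructed kidney, clear dead cells and shape scarring. Their surface receptors signal through small membrane adaptors, their lysosomes are rich in digestive proteins, and their crawling depends on proteins that bundle and branch actin. Markers of these functions differ in how specific they are. Ptprc, Coro1a, Laptm5 and Lcp1 are made by most kinds of white blood cell, while Cd68, Cd14 and Lyz2 are used for monocytes, macrophages and, in part, neutrophils.

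All 10 genes were detected in UUO urine, and only Lcp1, Lyz2 and Cd14 were detected in WT urine. The level is given as FPKM, a fragment count scaled by transcript length and by library depth. In UUO urine the order was Lyz2 (26.5), Tyrobp (20.7), Lcp1 (20.3), Coro1a (14.4), Cd68 (7.87), Laptm5 (7.41), Fcer1g (3.85), Ptprc (3.33), Itgam (1.63) and Cd14 (1.31). The levels thus spanned 20.2-fold. In WT urine the order was Lcp1 (149.9), Lyz2 (7.55) and Cd14 (2.05), and the other 7 genes were listed at 0. With no replicates, it cannot be said which neighbours in these orders differ beyond their error.

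**Figure D1:**
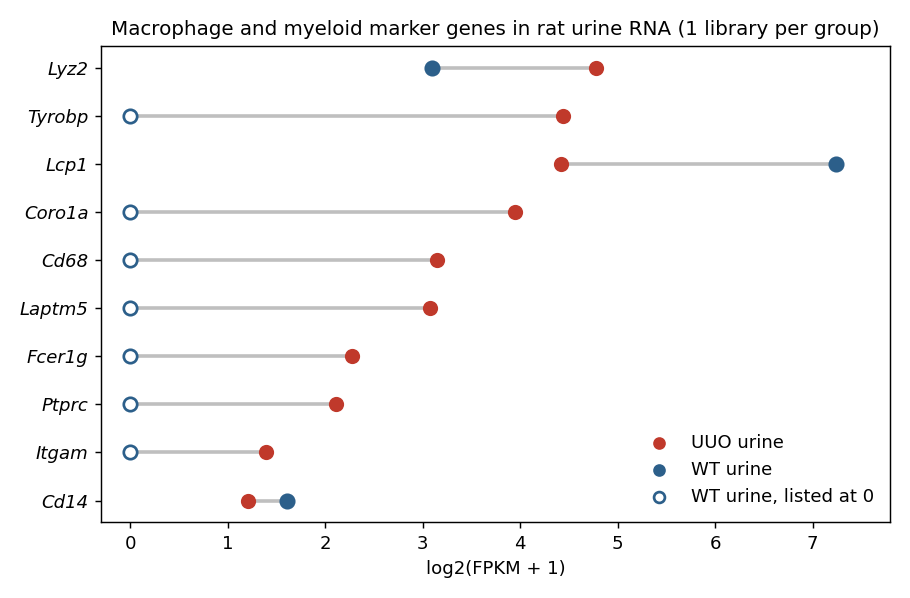
Level of each gene in the UUO library (red) and the WT library (blue) as log2(FPKM + 1), ordered by the UUO level, with open circles for genes listed at 0 in WT urine. Lyz2 is the highest gene in UUO urine at an FPKM of 26.5, and Lcp1 is the only one whose WT point lies far to the right of its UUO point, at 149.9 against 20.3.

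Counted by a difference in log2(FPKM + 1) of at least 1 (2-fold), 8 of the 10 genes were higher in UUO urine, 1 (Lcp1) was lower and 1 (Cd14) was within the limit. Of all 9853 annotated genes with an FPKM of at least 1 in either library, 25.7% were higher and 36.5% lower by the same limit. All 10 marker genes passed that filter. Of the 8 higher genes, 7 were listed at 0 in WT urine and only Lyz2 was above 0 in both, so that 7 of the 8 have no fold. A gene at 0 in WT urine that passes the filter is past the limit by construction, here and in every list below, so its being counted as higher adds nothing to its zero. The median log2 difference was 2.20 over the 10 genes and -0.51 over the 9853, but the first value rests on the zeros and on the pseudocount of 1. With a pseudocount of 10 only Tyrobp, Coro1a and Lyz2 were past the limit.

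Rescaling the libraries moved the median of the marker genes, from 2.20 to between 2.71 and 3.46, about as much as that of all genes. Raising UUO values by 1.54 to 2.79 times, to equalise sums, median ratio or 75th percentile, brought the median of all genes to between 0.04 and 0.84. The share of genes higher in UUO urine then ran from 31.8% to 46.7% and the share lower from 21.9% to 9.33%. Under each of the 4 rescalings 8 marker genes were higher and 1 lower. Because each rescaling raises UUO values, the 8 could not leave that class, and only Lcp1 and Cd14 could have changed theirs. The median of the marker genes lay 2.62 to 2.66 above that of all genes, against 2.71 as deposited.

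**Figure D2:**
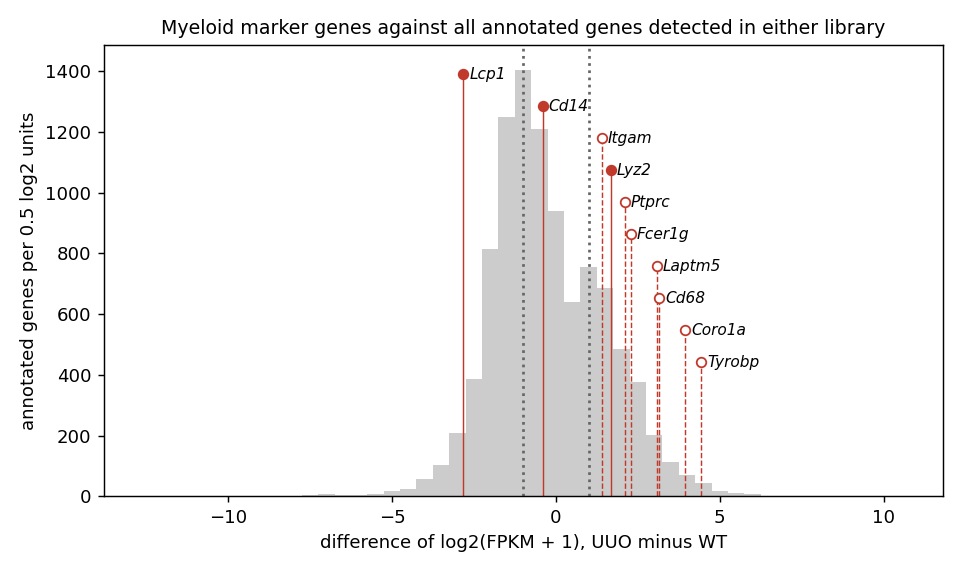
Histogram of the difference in log2(FPKM + 1), UUO minus WT, for 9853 annotated genes, with the 10 marker genes as red points placed at their own difference (open for those listed at 0 in WT urine; the height of a point has no meaning). Dotted lines mark the 2-fold limit; 8 genes lie to its right, Cd14 between the lines and Lcp1 at -2.82 to the left.

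Zeros were common in the WT library. Of the annotated genes, 8460 were listed at 0 in WT and 4476 in UUO urine, while 231 in WT and 2730 in UUO urine lay above 0 and under an FPKM of 1. Read from the steps between FPKM values of assembled features, a single fragment over 1000 bp was worth 0.542 FPKM in the WT and 0.496 in the UUO library. Zero in WT urine was the value of 19.3% of the 9853 genes and of 7 of the 10 marker genes. This share depended on the level in UUO urine, so the marker genes are set beside genes of like level. At UUO levels from 10 to under 30, where Tyrobp, Coro1a, Lyz2 and Lcp1 lie, 6.1% of 2540 genes were at 0 in WT urine, and so were Tyrobp and Coro1a. From 5 to under 10 the share was 15.0% of 2137 genes, and both Cd68 and Laptm5 were at 0. Between 2 and 5 it was 31.4% of 2265, with Ptprc and Fcer1g both at 0. From 1 to under 2 it was 59.4% of 1158, so the zero of Itgam is what most genes of that level show. FPKM differs from fragment number by transcript length, which was not used here, so a zero cannot be turned into a limit for a single gene.

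**Figure D3:**
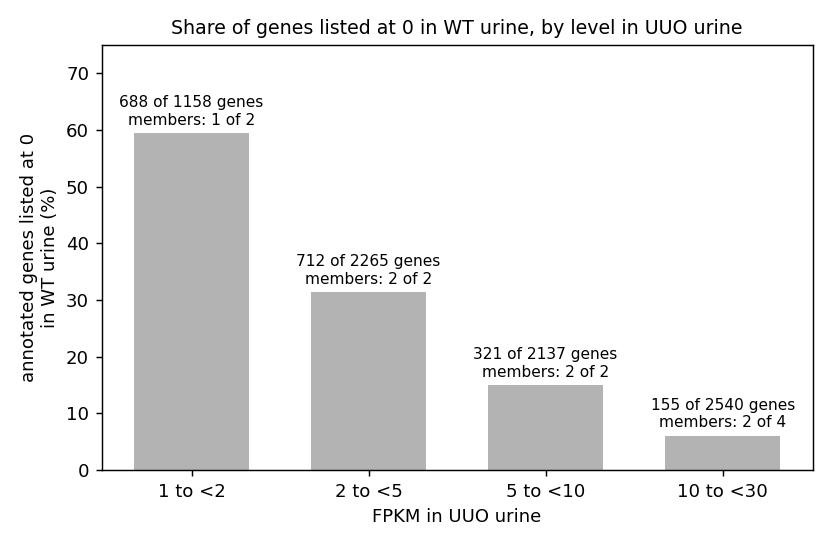
Percent of annotated genes listed at 0 in WT urine (vertical axis, from 0) in 4 classes of FPKM in UUO urine, with the number of genes and of marker genes at 0 above each bar. The share falls from 59.4% at the lowest level to 6.1% at 10 to under 30, where 2 of the 4 marker genes were at 0.

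Promoters are shown because members of this group are textbook targets of PU.1 (Spi1), the transcription factor of the ETS family that directs myeloid cells, which binds sites around the letters GGAA. RefSeq promoters (GRCr8 build, another one than that of the FPKM table) were on hand for 7 of the 10 genes. Missing were Tyrobp, Fcer1g and Lcp1. The 250 bases before the transcription start were searched on both strands for exact letters. GAGGAA was present in 6 of the 7 (Itgam, Laptm5, Lyz2, Cd68, Ptprc and Cd14), against 23.3% of 33469 rat promoters. GGAAGT was present in 4 (Laptm5, Lyz2, Cd68 and Ptprc), against 19.2%. These motifs share the letters GGAA and can overlap, which none of the matches here did. TTGCNNAA, a pattern of C/EBP sites, was present in 2 (Itgam and Lyz2), against 9.22%, and TATAAA in 1 (Laptm5), against 12.9%. The 170 bases before the start follow, 5′ to 3′ on the gene's strand, with GAGGAA and GGAAGT or their reverse complements in capitals. Genes with a match, other than Cd14, are set beside Coro1a, which had none of the 4 motifs.
Cd68, chr10:54882442-54882611, minus strand: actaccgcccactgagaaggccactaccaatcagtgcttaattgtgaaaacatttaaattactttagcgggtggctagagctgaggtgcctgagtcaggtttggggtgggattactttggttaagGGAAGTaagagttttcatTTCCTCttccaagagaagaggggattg
Lyz2, chr7:54798012-54798181, minus strand: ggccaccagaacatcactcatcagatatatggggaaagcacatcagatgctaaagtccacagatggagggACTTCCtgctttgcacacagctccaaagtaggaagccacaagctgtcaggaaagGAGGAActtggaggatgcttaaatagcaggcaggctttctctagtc
Itgam, chr1:192089422-192089591, plus strand: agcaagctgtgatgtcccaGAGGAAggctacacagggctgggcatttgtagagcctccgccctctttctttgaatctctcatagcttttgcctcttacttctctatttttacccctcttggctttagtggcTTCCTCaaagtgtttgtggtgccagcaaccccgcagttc
Laptm5, chr5:148371710-148371879, plus strand: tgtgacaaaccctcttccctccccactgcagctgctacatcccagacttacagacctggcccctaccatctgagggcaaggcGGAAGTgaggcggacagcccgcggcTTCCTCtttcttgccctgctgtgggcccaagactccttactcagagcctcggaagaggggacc
Ptprc, chr13:52259747-52259916, minus strand: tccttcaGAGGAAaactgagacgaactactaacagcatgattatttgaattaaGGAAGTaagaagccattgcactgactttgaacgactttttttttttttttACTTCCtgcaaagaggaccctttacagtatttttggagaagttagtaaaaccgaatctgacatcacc
Coro1a, chr1:190731104-190731273, minus strand: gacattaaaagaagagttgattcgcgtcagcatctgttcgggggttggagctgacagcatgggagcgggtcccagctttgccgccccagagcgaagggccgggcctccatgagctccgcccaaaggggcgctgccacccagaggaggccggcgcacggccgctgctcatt
The match nearest to the start lay 27 bases before it in Cd68, 39 in Itgam, 46 in Lyz2, 63 in Laptm5, 67 in Ptprc and 105 in Cd14, counted from the first base of the match. A match describes letters only, and says nothing of binding in these cells.

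Tyrobp (also DAP12) and Fcer1g (the Fc receptor common gamma chain) are adaptors without ligands of their own, which carry activating receptors to the surface and pass their signal on through an immunoreceptor tyrosine-based activation motif (ITAM). Tyrobp (ID 361537, chromosome 1, 90031086 to 90034979) reached 20.7 FPKM in UUO urine and was listed at 0 in WT urine. It ranked 1786th of the annotated genes in UUO urine, at percentile 85.1 of the 12008 above 0. All coordinates of the FPKM table are those of rn5, the build in the submitters' processing notes, and cover the merged region of overlapping entries. Fcer1g (ID 25441, chromosome 13, 94228752 to 94233553) had 3.85 in UUO urine, percentile 44.5, and was at 0 in WT urine. Its locus holds 5 further noncoding database entries, which together had 7.77, more than the gene itself, so that the gene held 33.2% of the summed 11.6. For Tyrobp the gene held 96.3% of its locus sum. The Fcer1g value is thus the less certain of the pair.

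Of 12 receptor genes listed, most of which signal through these adaptors, all were at 0 in WT urine, 8 were above 0 in UUO urine and 6 of these reached the filter. The C-type lectin receptors Clec4d (16.7) and Clec4e (5.17) were the highest in UUO urine. Clec7a (3.05), a receptor for fungal sugars, signals through a motif in its own tail rather than through an adaptor. Oscar had 2.65, Trem1, an amplifier of inflammation on neutrophils and monocytes, 1.37, and Trem3 1.14. The last 4 lie at levels where 31.4% or, for Trem1 and Trem3, 59.4% of all genes were at 0 in WT urine. Trem2, a macrophage receptor that pairs with Tyrobp, was listed at 0 in both libraries. The kinases and adaptors below the ITAM were mixed. Of 12 that passed, 6 were higher, 3 lower and 3 within the limit. The kinase Syk, named outside the naming rule for its place next to the ITAM, was at 4.03 in UUO and 0 in WT urine. Pik3ap1, a phosphoinositide 3-kinase adaptor, was lower in UUO urine (23.2 against 103), as were the phosphatase Ptpn6 (5.32 against 31.5) and the kinase Lyn (6.30 against 13.7). Card9 (8.89 and 6.98) and Blnk (4.77 and 5.57) were within the limit. Rescaling took the median of these 12 from 0.67 to between 1.14 and 1.84.

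Ptprc encodes CD45, the phosphatase on the surface of nearly all white blood cells. Its FPKM (ID 24699, chromosome 13, 60094037 to 60205338) was 3.33 in UUO urine, percentile 41.3, and 0 in WT urine. Other entries of its locus summed to 2.14 in UUO and 0.034 in WT urine. Itgam (ID 25021, chromosome 1, 206524954 to 206573171) is CD11b, the alpha chain of complement receptor 3. It was at 1.63 in UUO urine, percentile 29.2, and at 0 in WT urine. Its beta chain Itgb2 was above 0 in both libraries, with 8.14 in UUO and 5.99 in WT urine, so that Itgam stood at 0.201 of Itgb2 in UUO urine. Itgal, another alpha chain that pairs with Itgb2, had 2.24 and 3.01. Of 5 partners that passed, 2 were higher, 0 lower and 3 within the limit. The higher ones were Fermt3, which switches leukocyte integrins on (13.4 against 0), and the ligand Icam1 (3.02 against 0), while Tln1 had 37.0 and 58.6.

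Cd14 (ID 60350, chromosome 18, 29235230 to 29267106) binds bacterial lipopolysaccharide and hands it to Tlr4. Its level was low in both libraries, 1.31 in UUO and 2.05 in WT urine, the latter at percentile 6.7 of the 8024 genes above 0 there. Its log2 difference, -0.40 in the deposited values, became -0.02 with equal sums and 0.15 to 0.61 under the 3 other rescalings, so no direction can be given. Its locus holds 8 further entries, which summed to 1.49 and 1.45. Of 8 genes listed for the receptor and the signalling below it, Ly96 and Lbp were at 0 in both libraries. The 4 that passed were Tlr4 and 3 signalling genes, of which 0 were higher, 2 lower and 2 within the limit. Tlr4 was at 0.141 in UUO and 3.31 in WT urine and the kinase Irak1 at 32.5 and 82.7. Irak4 (5.14 and 8.79) and the adaptor Myd88 (9.23 and 13.7) were within the limit. Their median of -0.998 moved to between -0.42 and 0.39 when rescaled, so its sign depends on the scaling.

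Cd68, Lyz2 and Laptm5 belong to the lysosome and its cargo. Cd68, a glycoprotein of the lysosomal membrane (ID 287435, chromosome 10, 56014363 to 56016266), had 7.87 in UUO urine, percentile 62.8, and 0 in WT urine. Laptm5, a lysosomal membrane protein of blood cells (ID 89783, chromosome 5, 152749354 to 152771632), had 7.41, percentile 61.3, and 0. Lyz2 encodes lysozyme, which cuts bacterial cell walls (ID 25211, chromosome 7, 60337947 to 60343384). At 26.5 in UUO and 7.55 in WT urine it was 3.50-fold higher in UUO urine, a log2 difference of 1.68 that ran from 2.29 to 3.13 when rescaled. Its place within the library shifted as well, from percentile 29.4 of the genes above 0 in WT urine to 88.7 in UUO urine. The gene held 99.3% of its UUO locus sum, and no other entry there was above 0 in WT urine.

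Coro1a and Lcp1 bind actin, and they stood apart. Coro1a, the coronin of leukocytes (ID 155151, chromosome 1, 205102881 to 205107877), had 14.4 in UUO urine, percentile 77.7, and 0 in WT urine. Lcp1, also called L-plastin, bundles actin filaments (ID 306071, chromosome 15, 60930304 to 60988853). It had 149.9 in WT and 20.3 in UUO urine, 7.37-fold lower in the latter, with a log2 difference of -2.82 that stayed between -2.22 and -1.38 when rescaled. In WT urine it ranked 375th, at percentile 95.3, and in UUO urine 1826th, at percentile 84.8. Lcp1 made up 94.0% of the summed FPKM of the 10 genes in WT urine and 19.0% in UUO urine. It therefore decided the sum, which was 107 in UUO and 159.5 in WT urine. Without Lcp1, a step chosen after its value was seen, the sums were 87.0 and 9.61, 9.06-fold higher in UUO urine. Leaving out the only lower gene could only raise this ratio. The WT sum then holds Lyz2 and Cd14 alone, since the other 7 genes were listed at 0, so the fold is no measure of the group. L-plastin is known from leukocytes and also from epithelial tumour cells.

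Relatives of the members with broad expression were present in both libraries, with 1 exception. Of 11 that passed, 3 were higher, 1 lower and 7 within the limit, with a median of -0.51 that ran from 0.07 to 0.89 when rescaled. Coro1b (62.8 in UUO and 117 in WT urine), the relative of Coro1a, Laptm4a (28.7 and 46.1) and Pls1 (32.6 and 20.8), a relative of Lcp1, were within the limit. Lamp1, a lysosomal relative of Cd68, was higher in UUO urine (97.2 against 31.0), and Laptm4b lower (13.5 against 84.7). Pls3, the plastin of many solid tissues, was the exception, at 15.8 in UUO and 0 in WT urine. It is named outside the rule.

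Leukocyte genes outside the 10 were counted for comparison. Of 14 general leukocyte genes 13 passed the filter, and of these 11 were higher, 0 lower and 2 within the limit. Of all 14, 11 were at 0 in WT urine. These are not the same 11, since Cd48 (0.328 against 0) did not pass and Srgn was higher while above 0 in both. Arhgdib (15.3 against 0), Plek (8.5 against 0) and Cd52 (7.97 against 0) were seen in UUO urine alone. Srgn, a proteoglycan of secretory granules, had 17.7 and 6.51, and Cytip 6.65 and 7.42. The NADPH oxidase, which makes superoxide in phagocytes, was split. Of its 6 genes 4 were higher, among them Cyba (12.4), Rac2 (7.26) and Ncf4 (2.56), each 0 in WT urine, and 2 were lower. The lower ones were its catalytic subunit Cybb (2.04 against 7.75) and Ncf1 (1.39 against 5.03). Of 8 leukocyte actin regulators that passed, 3 were higher, 1 lower and 4 within the limit. Arpc1b (111 and 93.6) and Cotl1 (24.4 and 48.2) were within it and Evl (5.55 and 15.2) was lower. Rac2, Arhgdib, Itgb2 and Spi1 belong to more than 1 of the lists.

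Among 8 myeloid transcription factors that passed, 5 were higher, 2 lower and 1 within the limit. Cebpa, the factor of granulocyte and monocyte precursors that liver and other epithelia make as well, had 53.2 in UUO and 1.01 in WT urine. Cebpb had 49.0 and 22.2, Irf8 6.70 and 0, and Spi1, named outside the rule because it encodes PU.1, 5.14 and 0. Klf4 (2.32 and 9.49) was among the lower ones in UUO urine. Among colony-stimulating factors and their receptors 5 passed, 2 were higher and 3 lower. The neutrophil receptor Csf3r had 3.06 and 0 and Csf2ra 14.5 and 6.77, while Csf2rb had 7.57 and 17.9, Il34 2.1 and 5.28 and Csf1 0.476 and 3.70. The median of these 5 was -1.02 as deposited and between -0.57 and 0.23 when rescaled, so its sign depends on the scaling.

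**Figure D4:**
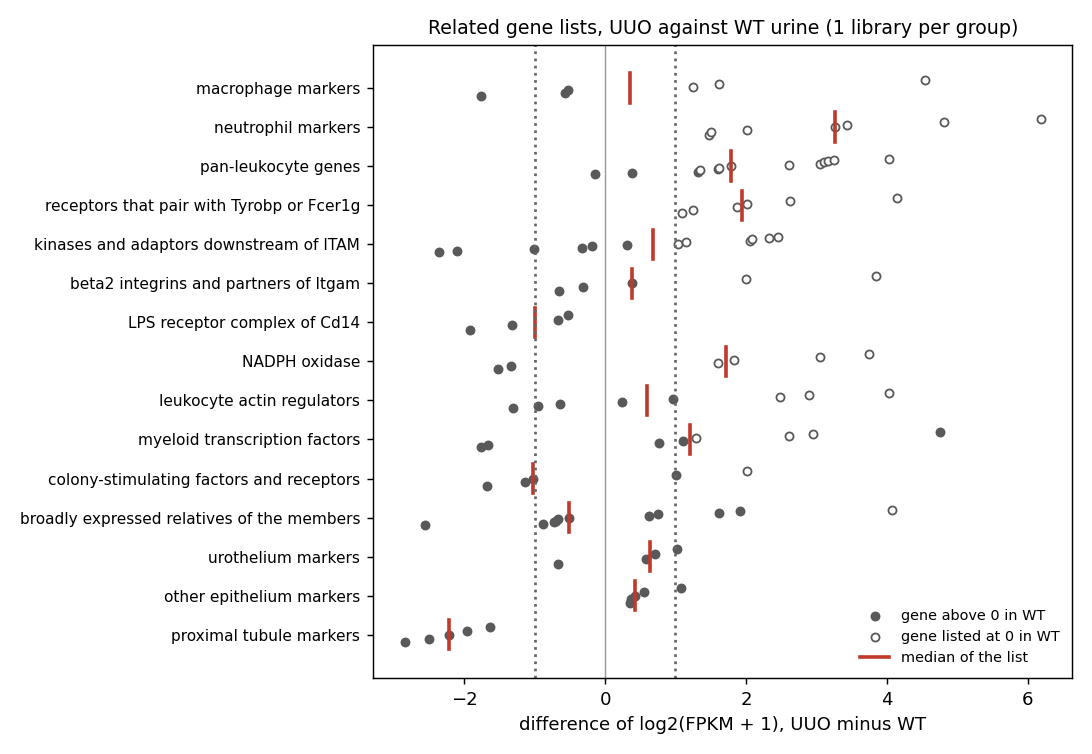
Difference in log2(FPKM + 1), UUO minus WT, for the genes of 15 lists with an FPKM of at least 1 in either library, with 1 point per gene (open for genes listed at 0 in WT urine), the list median as a red bar and the 2-fold limit as dotted lines. Open points lie to the right of the limit by construction, which holds for all 7 neutrophil points. The 6 macrophage points lie on both sides of 0, and all 5 proximal tubule points to the left of the limit.

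The label of macrophage was checked against genes that define the cell. Of 13 macrophage markers listed, 6 passed the filter, 3 were higher, 1 lower and 2 within the limit, with a median of 0.36. The complement gene C1qa was at 22.3 in UUO and 0 in WT urine, whereas C1qb (15.1 and 22.9) and C1qc (13.1 and 19.4), whose products join C1qa in 1 complex, were within the limit. Mertk (2.07) and Msr1 (1.38), a pair of clearance receptors, were at 0 in WT urine. The lineage receptor Csf1r reached only 0.935 in UUO urine, Adgre1 0.536 and Fcgr1a 0.492, and all 3 were at 0 in WT urine. Cd163, Mrc1, Marco and Trem2 were listed at 0 in both libraries. As deposited, the 13 genes summed to 63.0 FPKM in the UUO library and 68.4 in the WT library. Every rescaling raises the UUO sum alone and reverses this order. The median of the 6 that passed moved from 0.36 to between 0.85 and 1.58 when rescaled, so whether it reaches 1 depends on the scaling.

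Of 13 neutrophil markers listed, all were at 0 in WT urine and 8 were above 0 in UUO urine, where 7 reached the filter, with a sum of 123.9 against 0. S100a9 (71.7) and S100a8 (27.0), calcium-binding proteins that fill the neutrophil cytosol, led, followed by Camp (9.81), Lcn2 (8.63), Csf3r (3.06) and Mmp8 (1.84). Lcn2 is also made by injured tubules, and S100a8 and S100a9 by monocytes and by stressed epithelium. Mpo, Elane, Ltf, Ngp and Fpr1 were listed at 0 in both libraries. The part of neutrophils and of macrophages in the levels of the 10 marker genes was not tested. In such bulk samples fewer cells of a type and less RNA per cell cannot be told apart.

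Lymphocyte markers were scarce. Only Lck (2.32 in UUO urine) of 8 T cell markers, Cd79b (3.19) of 4 B cell markers and Nkg7 (3.29) of 5 NK cell markers passed the filter, all at 0 in WT urine. Cd3d, Cd3e and Ms4a1 were listed at 0 in both libraries. Of 6 dendritic cell markers 3 passed, Batf3 (3.61 and 0) being higher and Flt3 (0.159 and 5.25) and Xcr1 (2.53 in WT urine) lower. Of 5 mast cell markers only Kit passed, at 0 in UUO and 2.43 in WT urine.

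Blood and epithelium were read beside the marker genes. Of 4 platelet markers listed, all were at 0 in WT urine and 3 reached the filter in UUO urine, with a sum of 206.6 against 0, led by Pf4 (182). Red cell markers were higher in 4 of 4, with a sum of 55334 in UUO and 892.5 in WT urine. The part of blood in the levels of the 10 genes was not tested. Urothelium markers had 1 of 4 higher, 0 lower and a median of 0.64, and other epithelial markers 1 of 5 higher, 0 lower and a median of 0.43. Rescaling brought these medians to between 1.27 and 2.12 and between 1.05 and 1.89. Proximal tubule markers were lower in 5 of 5, with a sum of 14.9 in UUO and 98.2 in WT urine, and their median stayed between -2.22 and -1.16. Endothelium had 1 of 2 higher and fibroblast markers 1 of 3, neither with a lower gene.

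Noncoding database entries that share a merged locus with the 10 genes were counted, since reads can be divided among overlapping entries. An entry of a merged locus need not overlap the gene itself, so the counts do not show that reads were divided. The entries numbered 43, of which 32 were above 0 in UUO and 5 in WT urine, the highest being at 4.29 and 0.858. Summing FPKM over each locus left 8 genes higher and 1 lower, while among all annotated genes 23.0% were then higher. The median over the 10 was 2.97 in place of 2.20, and Fcer1g moved most, from 2.28 to 3.66 on the log2 scale.

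**Figure D5:**
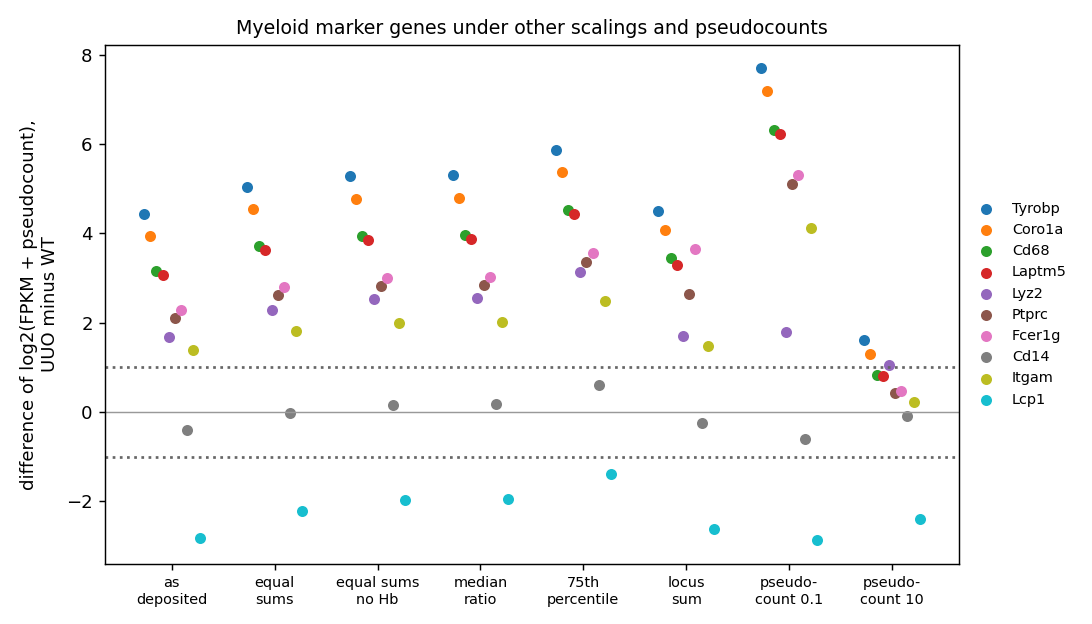
Difference in log2(FPKM + pseudocount), UUO minus WT, for the 10 genes as deposited and under 4 rescalings, the locus sum and 2 other pseudocounts; dotted lines mark the 2-fold limit. Lcp1 stays below the lower line in every setting shown, Cd14 lies between the lines on either side of 0, and a pseudocount of 10 leaves Tyrobp, Coro1a and Lyz2 above the upper line.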

How the data were processed

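RNA from rat urine was sequenced in 1 WT and 1 UUO library. Per the submitters' processing notes the tools were Bowtie2 2.0.6, TopHat2 2.0.9, Cufflinks 2.1.1 and Cuffdiff 2.1.1, and the build was rn5. For kidney RNA the study describes ribosomal RNA removal and strand-specific libraries, and for urine RNA a column kit, whereas the labels name Trizol. The authors deposited 1 FPKM value per feature and library. Which total entered the scaling, and whether PCR copies were removed, is not given in the sources used here. The table's log2 ratio, p-value and q-value columns hold the authors' own comparison and were not used.

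The value columns belong to conditions called UrRf and Urc. UrRf was read as UUO and Urc as WT, from the headings of the study's own urine lists, where these values recur, and every direction rests on those headings. 0 columns of values were left without a sample.

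Symbols came from RefSeq (GRCr8 table), which matched 16329 of 16484 number-only IDs. Differences were computed as log2(FPKM + 1), UUO minus WT, which understates low genes, for genes reaching 1 FPKM in one library or both, with a limit of 1 (2-fold). A 0 can be a failed estimate, so no fold is given against it. The members, the 24 gene lists and the motifs were chosen with earlier results of these data known. In each list at most the 6 genes with the highest summed FPKM were to be named, and exceptions are stated or are markers at or near 0. Some list genes are counted but not reported by name here. Alternatives were 2 pseudocounts, 4 rescalings, locus sums, a 4-fold limit and 2 filters.

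Read counts were not used. Depth was read from assembled features alone at a locus of 400 to 1200 bp, whose FPKM were fitted as whole fragments. Within 0.1 of a whole number were 93.5% of 186 features in WT and 99.5% of 3530 in UUO urine, with normalising totals of 2115000 and 2446000 fragments. The computation used Python 3.11.15, numpy 2.4.6, pandas 2.3.3 and matplotlib 3.10.9, and was tested on simulated data.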

Additional observations from a re-analysis of the deposited data

How the results depend on the processing

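No paired analysis was possible because there was only 1 WT and 1 UUO library, so none could be left out either. A count or share counts as unchanged within 1.5 times of the reported value, and a log2 value as long as neither its sign nor whether it passes 1 changes.

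A pseudocount of 10 left 3 of the 10 genes higher in UUO urine, with a median of 0.635, 3.75% of annotated genes higher and 2 of the 24 lists with a median of 1 or more, in place of 10. An FPKM of at least 5 in either library left 5 genes higher, 14.0% of annotated genes and 6 lists, since fewer genes are counted. The share of annotated genes higher was 46.7% at the same 75th percentile, 10.8% at a 4-fold limit and 15.4% without a filter. The number of lists was 18 under each rescaling except equal sums over all features. Leaving out Lcp1 left 0 genes lower. The log2 ratio of the summed FPKM of the 10 genes was -0.57 as deposited, 0.0544 by equal sums, 0.299 by equal sums without haemoglobin, 0.323 by the median ratio, 0.910 by the 75th percentile and 3.18 without Lcp1. The sum and the step without Lcp1 were added after seeing the data. That step leaves out the only lower gene, so its higher ratio was fixed in advance, and its WT sum holds Lyz2 and Cd14 alone. Of 70 single-gene values 62 were unchanged and 0 of those past the limit turned. Values of the 7 genes at 0 in WT urine could not have turned in these settings. Of 211 list medians 145 were unchanged and 2 past the limit turned, dendritic cells to 0.0900 without a filter and colony-stimulating factors to 0.228 by the 75th percentile. The causes were not tested. Genes under an FPKM of about 1.63 in WT urine would hold fewer than 3 fragments per 1000 bp, which limits what low levels and zeros can show.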
